A study of Mus musculus with 4 samples.

Results

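The genes described here are 10 immediate early genes, Fos, Jun, Junb, Jund, Egr1, Atf3, Ier2, Dusp1, Btg2 and Klf6, taken by symbol from a table of 17104 genes, in which all 10 were found. They were measured by RNA-seq in leukemia stem cells (LSCs), sorted as YFP+, c-kit+ cells from the bone marrow of male C57 mice with MLL-AF9 acute myeloid leukemia at 6 weeks of the secondary transplantation. The leukemia was made from lineage-negative bone marrow cells of CD37 fl/fl, Cre+ mice with a retrovirus that carries the MLL-AF9 fusion and YFP. The 2 CD37 -/- libraries came from leukemia in which tamoxifen, given to the primary recipients, had deleted the floxed part of CD37, and the 2 CD37 fl/fl libraries from leukemia of recipients given the vehicle. The floxed alleles and the Rosa26-driven CreERT2, which is not restricted to a cell type, were carried by both groups. Tamoxifen in the primary recipient went with the loss of CD37, and the 2 cannot be told apart. The number of animals behind a library is not given in the sources used here, and the p-values measure the spread between these 4 libraries only.

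Immediate early genes are transcribed within minutes of a growth factor, cytokine or stress signal, from promoters that are already open and without new protein synthesis. AP-1 is a family of dimeric transcription factors built from Jun proteins (Jun, Junb, Jund), which pair with each other or with Fos and ATF proteins, whereas Fos proteins need a Jun partner to bind DNA. Egr1 and Klf6 are zinc-finger transcription factors, and Dusp1 and Btg2 belong to the arm of the response that ends signaling or restrains growth. Their mRNAs are mostly short-lived and are also raised by handling of tissue and by cell sorting.

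The stretches below show the cyclic AMP response elements upstream of the members, because elements of this kind are bound by ATF and CREB dimers and by Jun paired with ATF proteins, and because the longest motif searched for them was shared by 4 members with different fold changes. The windows ran from 250 bases before to 50 bases after the start in RefSeq on GRCm38.p6, were present for 8 of the 10 members (not for Ier2 and Egr1), and were searched on both strands. The motif TGACNTCA was found in 4 of these 8 windows and in 8.83% of all 32851 windows. Within it, TGACGTCA was found upstream of Btg2 and Dusp1 (1.79% of all windows) and TGACATCA upstream of Jun and Klf6 (3.62% of all windows). Only bases before the start are printed, 5′ to 3′ on the gene's strand, with the motif in capitals. They lie at chr1:134079268-134079351 (minus strand) for Btg2, chr17:26508578-26508645 (minus) for Dusp1, chr4:95052230-95052297 (minus) for Jun and chr13:5861340-5861407 (plus) for Klf6.
Btg2: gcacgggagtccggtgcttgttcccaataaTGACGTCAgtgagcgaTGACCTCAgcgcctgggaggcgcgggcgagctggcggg
Dusp1: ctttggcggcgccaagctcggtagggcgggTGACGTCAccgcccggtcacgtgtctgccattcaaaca
Jun: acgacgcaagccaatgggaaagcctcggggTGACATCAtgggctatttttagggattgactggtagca
Klf6: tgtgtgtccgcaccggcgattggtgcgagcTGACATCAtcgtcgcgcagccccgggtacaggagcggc
The short core TGACG, which overlaps the first of these motifs, was found in 5 of the 8 windows (20.8% of all windows). In Fos it stood at 2 places in chr12:85473731-85473858 (plus strand), and the stretch is shown because Fos, differed 3.22-fold between the CD37 -/- replicates, the largest difference between replicates among the tested members.
Fos: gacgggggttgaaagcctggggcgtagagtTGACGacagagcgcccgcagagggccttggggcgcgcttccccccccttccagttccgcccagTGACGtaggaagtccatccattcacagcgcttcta
The AP-1 element TGANTCA was in 0 of the 8 windows (7.81% of all), the CArG box of serum response factor in 0 (1.63%), and TATAAA in those of Junb and Fos (13.6%). Bases further than 250 before the start, and any of Egr1 and Ier2, were not searched, so elements there are not covered. A match describes letters in a window and not binding, and the RefSeq start stood at -1210 bases (upstream) from the GENCODE start for Jund, and 34706 bases downstream of it for Atf3 and 53656 bases for Dusp1. The 4 genes with TGACNTCA had the log2 fold changes 0.60 (Btg2), 0.37 (Klf6), 0.08 (Dusp1) and -0.45 (Jun) between CD37 -/- and CD37 fl/fl, so they did not share a direction.

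Values were FPKM, fragments per kilobase of gene scaled by sequencing depth, and the recovered totals lay between 15327357 and 22627491 reads per library. The kilobases were those of the whole gene with its introns, so a gene with long introns has a low FPKM for its reads. Levels of different members are therefore compared only per kilobase of exon. The sums of cell type markers below are of whole-gene FPKM, so markers with long introns weigh little in them. Log2 fold changes are CD37 -/- minus CD37 fl/fl on log2(FPKM + 1), where genes with low values change less than they do in FPKM. Cd37 itself measured 56.6 and 46.8 FPKM in CD37 fl/fl against 23.2 and 22.9 FPKM in CD37 -/-, 44.6% of the CD37 fl/fl mean, and 1 value per gene does not separate reads of the deleted exons 4 to 5 from those of the others. The progenitor markers summed to between 1800 and 1933 FPKM per library, mostly from Elane. Mpo, another granule gene, had 80.3 and 51.6 FPKM in CD37 fl/fl against 34.4 and 20.8 FPKM in CD37 -/-. Cd33, of the same list, went the other way, at 6.34 and 2.53 FPKM in CD37 fl/fl against 14.2 and 18.6 FPKM in CD37 -/-. Kit, the marker of the sort, lay between 0.170 and 0.434 FPKM (213 to 804 reads), and Flt3 with 9 to 31 reads and Cd34 with 5 to 16 reads were near 0. Erythroid markers summed to 60.9 and 5.12 FPKM in CD37 fl/fl against 576 and 143 FPKM in CD37 -/- libraries, and markers of macrophages and dendritic cells to 352 and 105 FPKM against 59.8 and 132 FPKM. Markers of B cells, mostly Cd79b, summed to 12.8 and 15.4 FPKM in CD37 fl/fl against 8.46 and 6.64 FPKM in CD37 -/-. Markers of myeloid leukocytes summed to 48.9 and 47.1 FPKM in CD37 fl/fl against 58.5 and 63.8 FPKM in CD37 -/-. Neither sum overlapped between the groups, beside 23.7% of all tested genes without overlap and lower, and 38.2% without overlap and higher. In the myeloid list Cebpa and Ptprc did not overlap. Spi1 (16.2 and 11.3 FPKM in CD37 fl/fl against 14.9 and 16.2 FPKM in CD37 -/-) and Csf1r (3.79 and 1.16 FPKM against 1.16 and 4.38 FPKM) did. Markers of T and NK cells summed to 0.170 FPKM or less and those of stroma to between 0.840 and 1.66 FPKM. The part of these cell type markers in the results was not tested. In sorted bulk cells, fewer cells that express a gene and less RNA per cell cannot be told apart.

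At an unadjusted p, Jund fell in CD37 -/- LSCs to 33.1% of its CD37 fl/fl level, and no member passed after adjustment over all genes. The test was limma on the 6761 genes that averaged at least 1 FPKM, with Benjamini-Hochberg adjustment, and of these genes 0 (0%) had an adjusted p under 0.05. It covered 9 of the 10 members, since Atf3, with a mean of 0.608 FPKM, was below the minimum. At an unadjusted p under 0.05, 1 member (Jund) was lower, against 7.96% of all tested genes, and 0 members were higher, against 16.1% of all tested genes. Of the 9 members, 5 had positive and 4 negative fold changes, with a median of 0.08 beside 0.11 over all tested genes, and the signs of Junb, Dusp1 and Ier2 changed under another scaling of the libraries. The 2 groups did not overlap, with CD37 -/- lower, in Jun, Jund and Ier2 (23.7% of all tested genes), and with CD37 -/- higher in Egr1 and Btg2 (38.2% of all tested genes). Egr1, Btg2 and Klf6 stood above the median of all tested genes and Fos, Jun and Jund below it, also after quantile, TPM and upper quartile scaling, while the side of Junb, Dusp1 and Ier2 depended on the scaling.

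**Figure D1:**
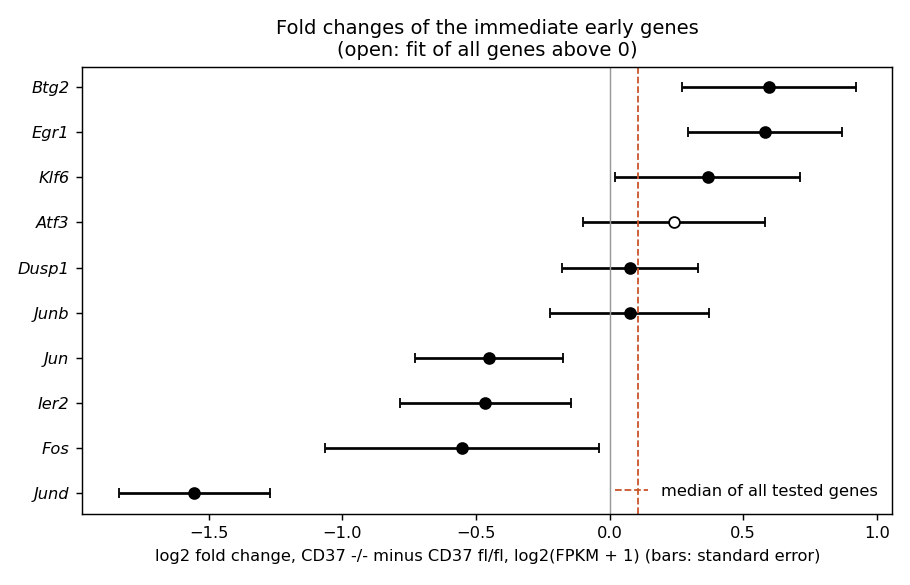
Log2 fold change of each immediate early gene (points, with standard errors as bars) between 2 CD37 -/- and 2 CD37 fl/fl libraries on log2(FPKM + 1). Jund at -1.55 stands apart from the other members, which lie between -0.55 and 0.60 (the signs of Junb, Dusp1 and Ier2 changed under another scaling). The dashed line is the median of all tested genes at 0.11, and the open point of Atf3 comes from the fit of all genes above 0.

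The Jun proteins are the core of AP-1. The fold changes of their 3 genes differed in size, and none passed after adjustment. Jund encodes the Jun protein that is present in many resting cells and that is known to restrain proliferation in several cell types. Jund (ENSMUSG00000071076, chr8:70698949-70700616 on GRCm38, plus strand) measured 118 and 85.9 FPKM in CD37 fl/fl against 36.1 and 31.4 FPKM in CD37 -/-. Both CD37 -/- values lay well below both CD37 fl/fl values, and the gap between the groups exceeded the spread within either. The means were 102 ± 22.8 FPKM (SD, n = 2) in CD37 fl/fl and 33.8 ± 3.34 FPKM (SD, n = 2) in CD37 -/-, which left 33.1% of the CD37 fl/fl level. Jund had a log2 fold change of -1.55 ± 0.28 (standard error, adjusted p = 0.0795, limma). A lower fold change than that of Jund was found in 0.769% of the tested genes, and a smaller unadjusted p in 2.13%. The counts behind these values were 3019 and 2481 reads in CD37 fl/fl against 1068 and 1184 in CD37 -/-. Over 15 other settings the log2 fold change of Jund lay between -1.78 and -1.18 and the adjusted p between 0.0607 and 0.255, and the unadjusted p was under 0.05 in 15 of 15.

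Jund is a gene of 1 exon, with an exon length of 1668 bases and a GC content of 67.1%. Jun and Ier2, also lower in CD37 -/- without overlap, are the only other members of 1 exon block. Genes of this structure were also shifted between these libraries. Among 237 tested protein-coding genes of 1 exon block, the median log2 fold change was -0.13. Of these genes, 29.1% were lower in CD37 -/- at an unadjusted p under 0.05. Their 5th and 95th percentiles were -1.98 and 1.22, against -0.68 and 0.88 for protein-coding genes of several exon blocks, so they spread more widely in both directions. Among 5531 protein-coding genes of several exon blocks the median was 0.12 and 5.68% were lower. In the quartile of protein-coding genes with the shortest exons (255 to 2419 bases) the median was -0.19 and 15.7% were lower. In the quartile with the highest GC content (55.4% to 70.0%) the median was 0.03 and 9.99% were lower. The part of gene structure and base composition in the differences of Jund, Jun and Ier2 was not tested. An antisense gene, Gm11175, overlaps Jund over 919 bases and was not analysed here, and the strand setting of the counting is not given in the sources used here.

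Junb, the Jun protein that rises with signaling and in myeloid differentiation, did not separate the groups. Junb (ENSMUSG00000052837, chr8:84974484-84978718, minus strand) measured 66.8 and 54.4 FPKM in CD37 fl/fl against 53.2 and 75.9 FPKM in CD37 -/-. The highest and the lowest value were both from CD37 -/- libraries, so the CD37 fl/fl values lay between them. Between the groups, it differed by 0.08 ± 0.30 on the log2 scale (standard error, limma adjusted p = 0.894). On the opposite strand Prdx2 overlaps Junb over 351 bases, at 42.0 and 43.3 FPKM in CD37 fl/fl against 24.0 and 19.1 FPKM in CD37 -/-.

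Jun, the founding member of the family, had a smaller difference than Jund. Jun (ENSMUSG00000052684, chr4:95049034-95052222, minus strand) measured 35.1 and 32.3 FPKM in CD37 fl/fl against 20.1 and 29.4 FPKM in CD37 -/-. Both CD37 -/- values were below both CD37 fl/fl values, but the second CD37 -/- library was close to the CD37 fl/fl range. This gave Jun a log2 fold change of -0.45 with a standard error of 0.28 (adjusted p = 0.346, limma), and the difference did not pass the test. It was -0.19 without the first and -0.71 without the second CD37 -/- library. The antisense gene Junos, which overlaps Jun over 689 bases, was at 0.0416 FPKM or less in every library.

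**Figure D2:**
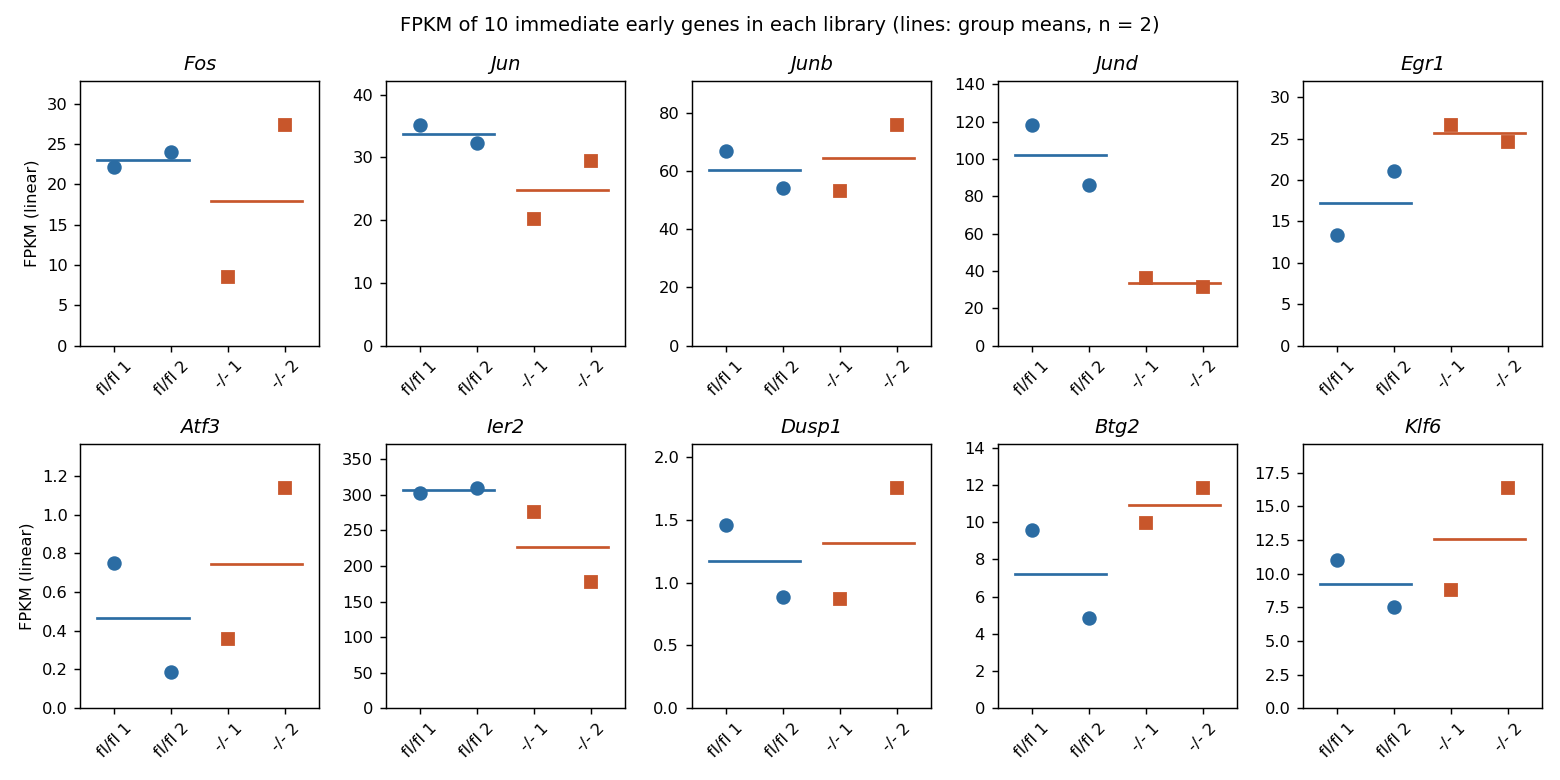
FPKM of the 10 immediate early genes in each library on linear axes from 0, with CD37 fl/fl as circles, CD37 -/- as squares and group means as lines (n = 2). The groups are far apart in Jund, while in Fos, Junb, Atf3, Dusp1 and Klf6 the values of the groups overlap.

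Within a library, the share of the Jun family that came from Jund is free of the scaling between libraries. It is not free of a shift that differs with gene structure, since Jund has 1 exon block and Junb 3. Counted per kilobase of exon, Jund made up 44.5% and 41.0% of the family in the CD37 fl/fl libraries against 24.8% and 16.7% in the CD37 -/- libraries. Junb made up 42.3% and 43.6% in CD37 fl/fl against 61.4% and 67.7% in CD37 -/-, while Jun stayed between 13.2% and 15.6% in all 4 libraries. The level of Junb against Jund depends on the exon length of Junb (2301 bases in GENCODE M21), and the FPKM of Junb did not give whole reads with the M21 span. By reads, Junb took 45.5% and 46.1% of the family in CD37 fl/fl against 62.3% and 66.8% in CD37 -/-, the larger share in all 4 libraries. Of the 5858 to 9952 reads of the family per library, Jund took 34.7% (Wilson 95% interval 33.7% to 35.7%) and 31.4% (30.4% to 32.4%) in CD37 fl/fl. In CD37 -/- it took 18.2% (17.3% to 19.2%) and 11.9% (11.3% to 12.5%). These intervals cover counting error only, and those of the 2 groups lay apart. The log2 ratio of Jund to Junb was 0.07 and -0.09 in CD37 fl/fl against -1.31 and -2.02 in CD37 -/-, a difference of -1.66. Its two-sided exact permutation test gave p = 0.333, the smallest that 2 libraries against 2 allow. Any ratio without overlap between the groups gives this value, so the test cannot decide. This ratio was also chosen after the values were seen.

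**Figure D3:**
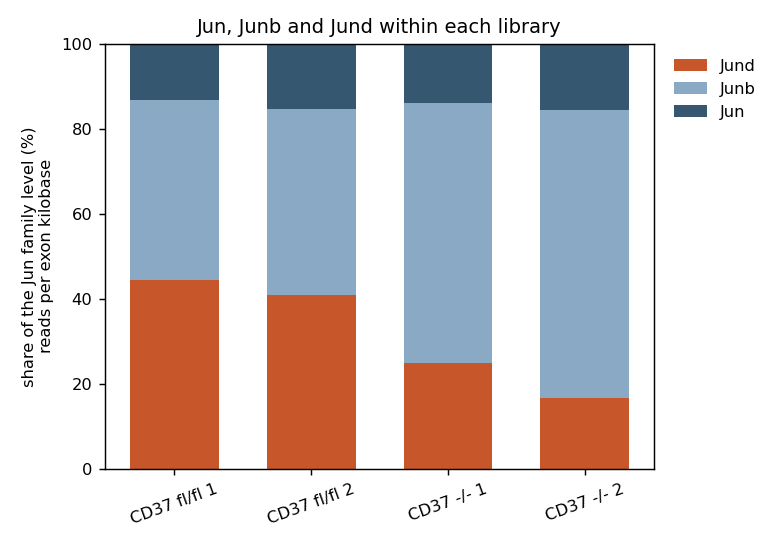
Share of Jun, Junb and Jund in the summed level of the Jun family in each library, as percent of reads per exon kilobase. The Jund share is 44.5% and 41.0% in CD37 fl/fl against 24.8% and 16.7% in CD37 -/-, and the Jun share lies between 13.2% and 15.6%.

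Fos and Atf3 encode the partners of Jun proteins among the members. Fos, the classical immediate early gene, was the most variable of the tested members between the CD37 -/- libraries. Fos (ENSMUSG00000021250, chr12:85473890-85477273, plus strand) measured 22.1 and 24.0 FPKM in CD37 fl/fl against 8.50 and 27.3 FPKM in CD37 -/-. One CD37 -/- library held the lowest and the other the highest value of all 4, which were 3.22-fold apart. Fos had a log2 fold change of -0.55 ± 0.51 (standard error, adjusted p = 0.521, limma). It was -1.34 (past the unadjusted threshold) without the second CD37 -/- library and 0.24 without the first, so its direction rested on 1 library. The ratio of Fos to Jun per exon kilobase was 0.904 and 1.07 in CD37 fl/fl against 0.607 and 1.33 in CD37 -/-. The libraries with the highest and the lowest ratio were again the CD37 -/- pair.

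Atf3 encodes an ATF protein that is induced by cellular stress and can pair with Jun. Atf3 (ENSMUSG00000026628, chr1:191170296-191218039, minus strand) measured 0.749 and 0.186 FPKM in CD37 fl/fl against 0.357 and 1.14 FPKM in CD37 -/-. Because its span is 22.2 times its exon length, these low values stand for 548 and 154 reads in CD37 fl/fl against 302 and 1230 in CD37 -/-. The groups overlapped, with the lowest value in CD37 fl/fl and the highest in CD37 -/-. In the fit of all genes above 0 it differed by 0.24 ± 0.34 (log2 scale, standard error, adjusted p = 0.730, limma). When its exon length was used, the log2 fold change was 0.69, and with limma-voom on the recovered reads 0.85.

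Egr1 and Klf6, the zinc-finger factors, and Ier2, a small nuclear protein of the immediate early response, gave values in both directions. Egr1 (ENSMUSG00000038418, chr18:34859823-34864984, plus strand) measured 13.3 and 21.1 FPKM in CD37 fl/fl against 26.7 and 24.6 FPKM in CD37 -/-. Both CD37 -/- values of Egr1 were above both CD37 fl/fl values, which differed more between themselves. Between the groups, Egr1 differed by 0.58 ± 0.29 on the log2 scale (standard error, limma adjusted p = 0.265). Without the first CD37 fl/fl library the value was 0.27. It passed the unadjusted threshold without the second CD37 fl/fl library, at 0.89, and with every library rescaled to the same sum of FPKM (TPM), at 0.94.

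Klf6, a Krüppel-like factor, (ENSMUSG00000000078, chr13:5861482-5870394, plus strand) measured 11.0 and 7.50 FPKM in CD37 fl/fl against 8.78 and 16.4 FPKM in CD37 -/-. The groups overlapped, and the highest value was from the second CD37 -/- library. This gave Klf6 a log2 fold change of 0.37 with a standard error of 0.35 (adjusted p = 0.527, limma), and it was -0.05 without that library and 0.78 without the first CD37 -/- library.

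Ier2 (ENSMUSG00000053560, chr8:84661331-84662852, minus strand) measured 303 and 310 FPKM in CD37 fl/fl against 276 and 178 FPKM in CD37 -/-. The CD37 fl/fl libraries were nearly equal, and the second CD37 -/- library was the lowest. Ier2 had a log2 fold change of -0.46 ± 0.32 (standard error, adjusted p = 0.396, limma). Without the first CD37 -/- library it was -0.78, past the unadjusted threshold, without the second it was -0.15, and after quantile normalization it was 0.01.

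Dusp1 and Btg2 act against signaling and growth. Dusp1 encodes a nuclear phosphatase that inactivates MAP kinases. Dusp1 (ENSMUSG00000024190, chr17:26505590-26562128, minus strand) measured 1.45 and 0.887 FPKM in CD37 fl/fl against 0.870 and 1.75 FPKM in CD37 -/-. The values of the groups overlapped, with the lowest and the highest in CD37 -/-. Between the groups, it differed by 0.08 ± 0.25 on the log2 scale (standard error, limma adjusted p = 0.872). The gene model spans 17.1 times its exon length, so that these FPKM stand for between 869 and 2243 reads, and Ergic1 overlaps Dusp1 over 640 bases on the opposite strand.

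Btg2 encodes an antiproliferative protein that is induced by p53 and by differentiation. Btg2 (ENSMUSG00000020423, chr1:134075170-134079120, minus strand) measured 9.56 and 4.83 FPKM in CD37 fl/fl against 9.96 and 11.8 FPKM in CD37 -/-. Both CD37 -/- values were the higher, the first of them by a small margin over the first CD37 fl/fl library. This gave Btg2 a log2 fold change of 0.60 with a standard error of 0.32 (adjusted p = 0.300, limma). It passed the unadjusted threshold without the first CD37 fl/fl library, at 1.02, and with TPM rescaling, at 0.94, and was 0.17 without the second CD37 fl/fl library.

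**Figure D4:**
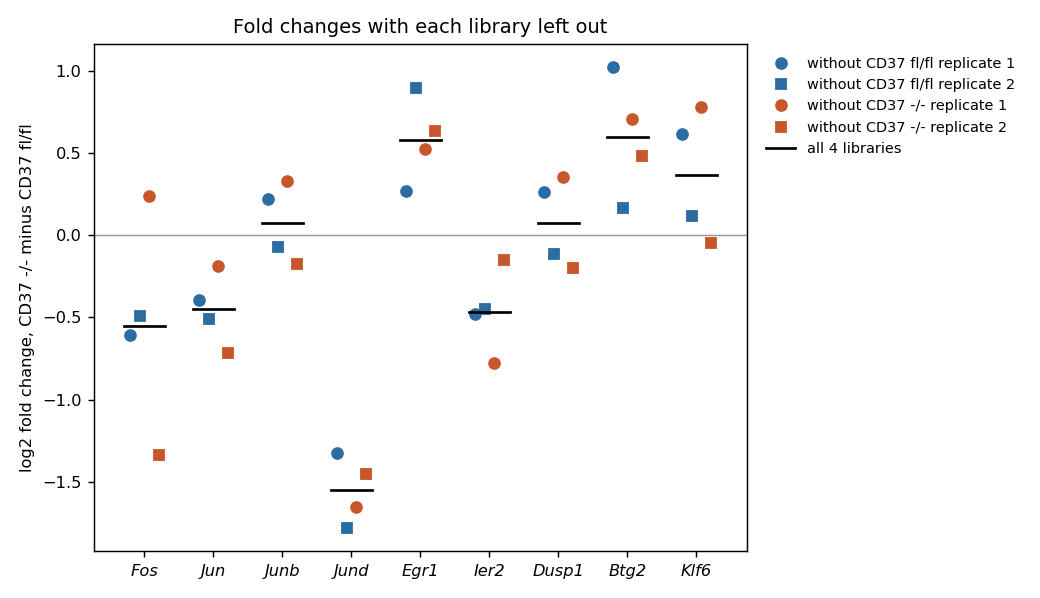
Log2 fold change of the 9 tested immediate early genes with all 4 libraries (line) and with each library left out in turn (points), on log2(FPKM + 1). Jund stays between -1.78 and -1.33, Fos goes from -1.34 to 0.24, and Junb, Dusp1 and Klf6 also have points on both sides of 0.

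Per kilobase of exon, Ier2 was the most abundant member by a wide margin. Its level was 267 ± 60.9 exon-length FPKM (SD over the 4 libraries) with a range of 178 to 310. Junb followed at 105 ± 18.2 exon-length FPKM and Jund at 67.8 ± 41.6, with the M21 exon length of Junb. The place of Jund differed between the groups, since its mean was 102 exon-length FPKM in CD37 fl/fl, like that of Junb (102), and 33.7 in CD37 -/-. In the second CD37 -/- library Jund (31.4) lay below Fos (39.3) and Klf6 (33.2). Fos (29.5 ± 11.9), Jun (29.2 ± 6.51), Egr1 (24.7 ± 6.75), Klf6 (22.2 ± 7.95) and Dusp1 (21.2 ± 7.45) formed a middle group on the same scale. Atf3 (13.5 ± 9.43) and Btg2 (13.0 ± 4.29) were the lowest. Apart from Ier2 and Junb, the ranges of every pair of neighbours in this order overlapped. All 10 members together took 0.143% and 0.126% of the reads in CD37 fl/fl against 0.110% and 0.128% in CD37 -/-. Ier2 alone gave 32.3% and 37.4% of the members' reads in CD37 fl/fl against 38.2% and 21.3% in CD37 -/-.

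Replicates of a genotype differed by more in the median of these genes than in the median of all tested genes. The median absolute difference between the CD37 fl/fl libraries on log2(FPKM + 1) was 0.38 over the 9 tested members, beside 0.25 over all tested genes. Between the CD37 -/- libraries it was 0.53, beside 0.22. The members and all tested genes were not matched for level, and genes with low values differ by less on this scale. The difference was largest in Fos, at 1.58 between the CD37 -/- libraries, and 1.95% of the tested genes differed by more there. Klf6 differed by 0.83 (6.86% of genes by more) in the same pair, and Btg2 by -0.86 (6.39% by more) between the CD37 fl/fl libraries. In CD37 -/-, 7 of the 10 members were higher in the second library (50.9% of tested genes), and in CD37 fl/fl 3 of 10 were (61.2%). The second CD37 -/- library held the highest value for 6 of the 10 members, as for 38.4% of the tested genes. It did not hold them for Jund and Ier2, which were lowest there. Time from death to sorting and lysis is not given in the sources used here, and its part in these differences was not tested.

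**Figure D5:**
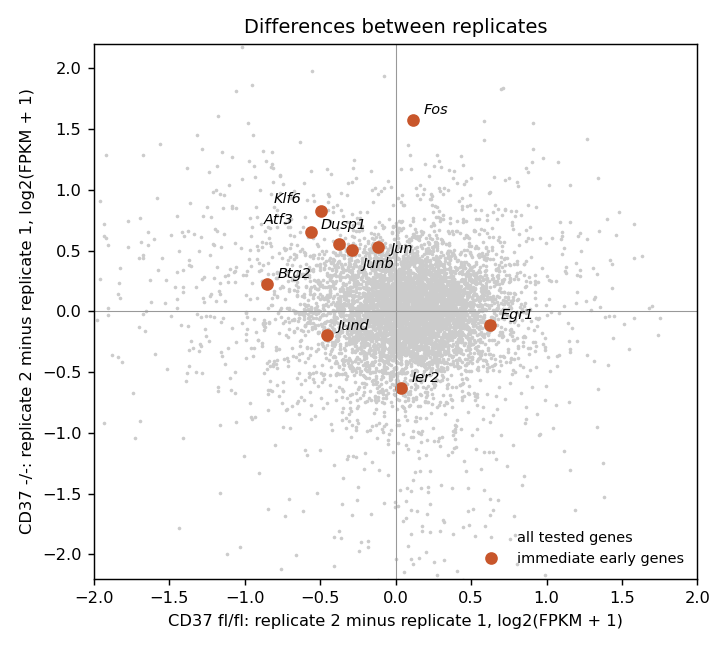
Difference between replicates on log2(FPKM + 1), second minus first library, in CD37 fl/fl (horizontal) and CD37 -/- (vertical), for the 10 immediate early genes (large points) and all tested genes (small points, of which 95 lie outside the axes). Fos is at 0.11 and 1.58, and Atf3, Klf6, Dusp1, Junb, Jun and Btg2 lie at the upper left, lower in the second CD37 fl/fl and higher in the second CD37 -/- library.

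The genes whose pattern over the 4 libraries was nearest to Fos and to Jun were named by the Euclidean distance of the centred log2(FPKM + 1) values, among the 2655 genes that averaged at least 5 FPKM and are not predicted genes. Nearest to Fos was Cd93, a surface glycoprotein of stem and progenitor cells, at a distance of 0.39, with 11.5 and 14.2 FPKM in CD37 fl/fl against 6.43 and 16.5 FPKM in CD37 -/-. Ly6e and the pseudogene Rpl17-ps10, whose reads can be shared with other ribosomal protein copies, followed at 0.68 each, and Jun stood at 0.77 from Fos. Nearest to Jun was Sp110, an interferon-induced nuclear body protein, at 0.098, with 9.14 and 8.88 FPKM in CD37 fl/fl against 5.50 and 7.81 FPKM in CD37 -/-. Tifab at 0.12 and Pla2g15 at 0.15 followed. These distances rest on 4 libraries and are a description.

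Other genes that encode AP-1 and related leucine zipper proteins gave 2 higher and 1 lower gene at an unadjusted p under 0.05 among 9 tested of 15 in the table (16.1% and 7.96% over all tested genes), with a median log2 fold change of -0.07 beside 0.11 over all genes. Fosb, a Fos protein of the immediate early response, was lower. It measured 9.42 and 9.68 FPKM in CD37 fl/fl against 1.39 and 4.40 FPKM in CD37 -/-. Fosb had a log2 fold change of -1.55 ± 0.39 (standard error, adjusted p = 0.118, limma), and both CD37 -/- values were below the CD37 fl/fl values, unlike those of Fos. It was -0.97 without the first and -2.14 without the second CD37 -/- library, and past the unadjusted threshold in both cases. Mafk, a small Maf protein without a transactivation domain, was higher at 6.30 and 7.94 FPKM in CD37 -/- against 2.70 and 2.65 FPKM in CD37 fl/fl. Between the groups, it differed by 1.14 ± 0.19 on the log2 scale (standard error, limma adjusted p = 0.0735). Fosl2, another Fos-related gene, measured 2.17 and 0.838 FPKM in CD37 fl/fl against 2.46 and 4.61 FPKM in CD37 -/-. This gave it a log2 fold change of 0.87 with a standard error of 0.35 (adjusted p = 0.206, limma), which was no longer past the unadjusted threshold without the second CD37 fl/fl (0.48) or the second CD37 -/- library (0.52), and in 7 of the other settings.

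Of 34 further immediate early genes in the table, 26 were tested, of which 2 were higher and 2 lower at an unadjusted p under 0.05 (16.1% and 7.96% over all tested genes), with 15 positive and 11 negative fold changes and a median of 0.24. Klf2, a Krüppel-like factor known for quiescence in lymphoid and endothelial cells, had the smallest p of them. It measured 194 and 143 FPKM in CD37 fl/fl against 32.0 and 35.7 FPKM in CD37 -/-, with no overlap. Klf2 had a log2 fold change of -2.27 ± 0.28 (standard error, adjusted p = 0.0502, limma).

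The 2 higher genes of that list, Nfkbia and Tnfaip3, both encode inhibitors of NF-kB signaling that NF-kB induces. Nfkbia measured 26.2 and 21.1 FPKM in CD37 fl/fl against 53.7 and 53.0 FPKM in CD37 -/-, a log2 difference of 1.15 ± 0.25 (standard error, adjusted p = 0.103, limma). Tnfaip3 measured 0.964 and 0.638 FPKM in CD37 fl/fl against 2.24 and 4.11 FPKM in CD37 -/-, a log2 difference of 1.18 ± 0.26 (standard error, adjusted p = 0.106, limma). Neither overlapped between the groups, and neither passed after adjustment.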

How the data were processed

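RNA with poly(A) tails from LSCs of each group (2 samples of CD37 fl/fl, 2 of CD37 -/-) was sequenced on Illumina as stranded libraries, and the groups were taken from the genotype in the labels. The authors deposited FPKM values, 1 column per library, with no log. The submitters' processing notes list fastp 0.20.1, STAR 2.7.7a, featureCounts 2.0.0, edgeR and the build mm39, while the annotation and the strand setting of the counting are not given in the sources used here.

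Positions and names are those of GENCODE M21 on GRCm38, since no mm39 annotation was used here, and 17045 of 17104 identifiers (99.7%) matched. With the gene spans of M21, the FPKM gave whole reads, within 0.05 read, in all 4 libraries for 16846 genes (98.8%). Lengths for Junb, Jund and Ier2, whose M21 spans gave no whole reads, were inferred from the values after these were seen as 3868, 1667 and 1524 bases. Recovered reads served for depth, composition, exon-length FPKM and limma-voom only.

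limma 3.58.1 in R 4.3.3 (lmFit, eBayes with a trend) was run on log2(FPKM + 1) of the 6761 genes averaging at least 1 FPKM, without a block, and p-values were adjusted by Benjamini-Hochberg (threshold 0.05). It was tested on simulated data. Python 3.11.15 with scipy 1.17.1, numpy 2.4.6 and pandas 2.3.3 made the tables and motif searches, and matplotlib 3.10.9 the figures. The alternatives were robust eBayes or eBayes with no trend, a replicate block, each library left out, TPM, upper quartile or quantile scaling, a pseudocount of 0.1, a minimum mean of 5 or all genes above 0, exon-length FPKM, and limma-voom where reads averaged at least 10.

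The members and all gene lists were chosen with earlier results of these data known. Named were the members, up to 4 genes at an unadjusted p under 0.05 from each further list, and the genes nearest to Fos and Jun. 1 gene that meets this rule is counted in its list but not reported here. Distances, lists and motif matches are descriptions.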

Additional observations from a re-analysis of the deposited data

How the results depend on the processing

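Over the 15 alternatives, 120 of 136 fold changes of the 10 members kept their direction and their side of the unadjusted threshold. Of the others, 6 passed that threshold in an alternative alone and 10 changed direction. The 136 include 2 of Atf3, which were compared with its fit of all genes above 0, since the main fit did not test it. The direction of Fos turned with 1 library left out (-1.34 to 0.24), as did that of Junb (-0.18 to 0.33), Dusp1 (-0.20 to 0.36) and Klf6 (-0.048 to 0.78). Division by the upper quartile gave -0.11 for Junb and -0.025 for Dusp1, and quantile normalization -0.18 for Dusp1 and 0.014 for Ier2. Members at an unadjusted p under 0.05 numbered 3 with TPM rescaling and 2 with each library left out in turn (Jund and 1 other).

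At an adjusted p under 0.05 there were 45 genes at a minimum mean of 5 FPKM (3118 tested), 46 with the upper quartile, 88 with robust eBayes, 16 with exon length (10431 tested) and 73 with the replicate block, and no member was among them. At an unadjusted p there were 2911 of 16973 genes above 0, 755 with a mean of at least 5, 2606 with exon length, 3271 of 12904 by limma-voom (0 at an adjusted p) and 809 to 1593 with a library left out, against 1626. The higher genes made up 66.9% of these calls, but 47.5% after quantile normalization, 44.0% with the upper quartile and 91.3% with TPM. The median of all tested genes was then -0.02, -0.03 and 0.40 in place of 0.11, and Jund lay at -1.35, -1.70 and -1.58 relative to it (-1.66 as reported). The cause of these shifts was not tested.

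The labels do not say that replicate numbers pair the libraries, and the deviations of same-numbered libraries correlated at -0.04 over 6761 genes. With the replicate block, Jund had an adjusted p = 0.0735 (limma). With 2 libraries a group, the precision is set by the libraries and not by depth.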

Other observations

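2 lists around the immediate early genes were measured as well. Of 16 kinase and factor genes in the table that act upstream of immediate early transcription, 8 were tested. At an unadjusted p under 0.05 (limma) 0 of the 8 were higher and 0 lower, against 16.1% and 7.96% of all tested genes. These 8 had 6 positive and 2 negative fold changes and a median of 0.34 beside 0.11 over all tested genes. Of 9 heat shock genes in the table, which respond to stress and handling, 7 were tested, with a median of 0.03, and 1 was lower (7.96% of all tested genes). Hspe1, the mitochondrial co-chaperone, was at 72.2 and 96.5 FPKM in CD37 fl/fl against 52.3 and 38.1 FPKM in CD37 -/-. Hspe1 had a log2 fold change of -0.89 ± 0.30 (standard error, adjusted p = 0.163, limma), and was no longer past the unadjusted threshold without the second CD37 fl/fl (-0.68) or the second CD37 -/- library (-0.66), nor with TPM rescaling (-0.51).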
